A study of Mus musculus with 8 samples.

Results

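Gdpd3 and 4 related genes of the glycerophosphodiester phosphodiesterase family, Gdpd1, Gdpd2, Gdpd5 and Gde1, were followed across both tissues and both genotypes of a mouse study of spinocerebellar ataxia type 17 (SCA17). The members were the probe sets whose only gene symbol on the platform was one of these 5 names. Each gene had 1 such probe set, so the members were 5 of 35556 probe sets and 5 of 19938 genes. The set was put together because Gdpd3 was higher in knock-in (KI) than in wild-type (WT) mice in both tissues. Gdpd3 was thus picked on its KI minus WT difference, which is given as a description, with no test. The other 4 were included by family name.

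SCA17 is an inherited ataxia in which the glutamine repeat of the general transcription factor TBP is lengthened. Total RNA of cerebellum and tibialis anterior (TA) muscle, a fast-contracting muscle of the lower hind limb, was measured on Affymetrix Mouse Gene 1.0 ST arrays. The 4 groups of 2 arrays were SCA17 KI muscle (replicates 94 and 97), WT muscle (95 and 96), SCA17 KI cerebellum (94 and 97) and WT cerebellum (95 and 96), all from mice aged 3 months. The study text speaks of 3 mice per genotype, and the arrays analysed here number 2 for each genotype in each tissue. The sources used here do not give the strain, the repeat length or the extent of expression of the knock-in allele. No source says that arrays of a group came from separate animals beyond their numbers, so p values rest on the spread between arrays. That spread was pooled over the 4 groups and drawn towards the spread of other genes. A gene thus has the same standard error (SE) in both tissues.

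Enzymes of this family cut the phosphodiester bond that joins glycerol to a head group. Gdpd1 and Gdpd3 encode the membrane enzymes GDE4 and GDE7, which act on lysophospholipids as lysophospholipase D and release lysophosphatidic acid or N-acylethanolamines. Gde1 encodes a membrane glycoprotein that hydrolyses glycerophosphoinositol and glycerophospho-N-acylethanolamines and binds the G-protein regulator RGS16. Gdpd5 and Gdpd2 encode the multi-spanning surface enzymes GDE2 and GDE3. GDE2 releases proteins from their glycosylphosphatidylinositol anchors and takes part in motor neuron differentiation. GDE3 has been studied in osteoblasts and also cuts glycerophosphoinositol. All levels below are log2 values, where a difference of 1 is a 2-fold change. Levels of different probe sets were not set against each other.

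The tissues matched their labels. The mean of 6 TA fibre markers, which include Ckm and Myh4, was 11.65 to 12.18 on the muscle arrays and 6.08 to 6.41 on the cerebellum arrays. The mean of 6 markers of cerebellar neurons, which include Pcp2 and Gabra6, was 10.01 to 10.58 on the cerebellum arrays and 4.67 to 4.86 on the muscle arrays. Array medians lay between 5.40 and 5.51. Each array's 40th percentile, used below as the mark for low signal, lay between 4.96 and 5.05. In these bulk samples, fewer cells of a type and less RNA per cell cannot be told apart.

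The promoter of Gdpd3 is shown because Gdpd3 was the member that differed most between genotypes, and that of Gdpd1 because it encodes the enzyme with the most similar activity. Both are RefSeq sequences of build GRCm38.p6 and run from 250 bases before to 50 bases after the annotated gene start. Capitals mark a match to any of 3 motifs searched on both strands, which do not overlap each other here. These were TATAAA (the form of the promoter element to which TBP binds), CAGCTG (an E-box of the kind bound by myogenic factors) and GGGCGG (a GC box). The Gdpd3 window is chr7:126766164-126766463 on the plus strand and the Gdpd1 window is chr11:87074088-87074387 on the minus strand.
Gdpd3: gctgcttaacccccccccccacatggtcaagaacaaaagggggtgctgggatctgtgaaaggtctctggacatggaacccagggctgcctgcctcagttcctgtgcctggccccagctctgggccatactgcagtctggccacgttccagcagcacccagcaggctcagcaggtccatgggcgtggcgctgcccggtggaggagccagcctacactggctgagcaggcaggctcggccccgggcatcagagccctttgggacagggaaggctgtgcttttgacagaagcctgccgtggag
Gdpd1: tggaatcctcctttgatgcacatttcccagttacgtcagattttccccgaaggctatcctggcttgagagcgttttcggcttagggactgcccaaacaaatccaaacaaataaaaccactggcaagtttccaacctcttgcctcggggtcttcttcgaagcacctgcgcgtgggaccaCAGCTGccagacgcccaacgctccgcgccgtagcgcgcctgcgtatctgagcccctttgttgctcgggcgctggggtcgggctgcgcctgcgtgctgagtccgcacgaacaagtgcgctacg

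The Gdpd3 window held none of the 3 motifs, so it is printed with no capitals. The Gdpd1 window held a single match, CAGCTG at position -72 from the gene start. Among the other members with a window, Gde1 had a GC box at -58, and the earlier of the Gdpd2 windows had TATAAA at -207 while the later had no match. Of 32851 promoter windows of the same length, 13.6% held TATAAA, 16.3% CAGCTG and 35.7% GGGCGG. The Gdpd3 window had 7 CG dinucleotides, equal to the median of 7 over all windows, against 25 in Gdpd1 and 22 in Gde1. Its base composition was 64.3% G or C, against a median of 52.7%. No window was given for Gdpd5. A match, or its lack, describes these letters only.

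Gdpd3 (probe set 10557470, chromosome 7) gave low signal in WT mice and more in KI mice. On the WT arrays 32.2% to 38.5% of the array's probe sets were below it, and on the KI arrays 53.7% to 87.4%. On the muscle arrays its level was 4.98 and 4.74 in WT replicates 95 and 96, and 7.69 and 7.97 in KI replicates 94 and 97. On the cerebellum arrays it was 4.59 and 4.63 in WT replicates 95 and 96, and 5.66 and 6.27 in KI replicates 94 and 97. All 4 WT arrays were below the 40th percentile of their array, all 4 KI arrays were above it, and the genotypes did not overlap in either tissue. Of 14708 genes tested in either tissue, 4.53% likewise had both KI arrays above both WT arrays in both tissues. In order of the group means, WT cerebellum was lowest at 4.61 ± 0.03, followed by WT muscle at 4.86 ± 0.17, KI cerebellum at 5.96 ± 0.43 and KI muscle at 7.83 ± 0.20 (SD, n = 2 each). The arrays of groups next to each other in this order did not overlap. No share over all genes was taken for such an order, and the order contains the differences Gdpd3 was chosen for.

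**Figure D1:**
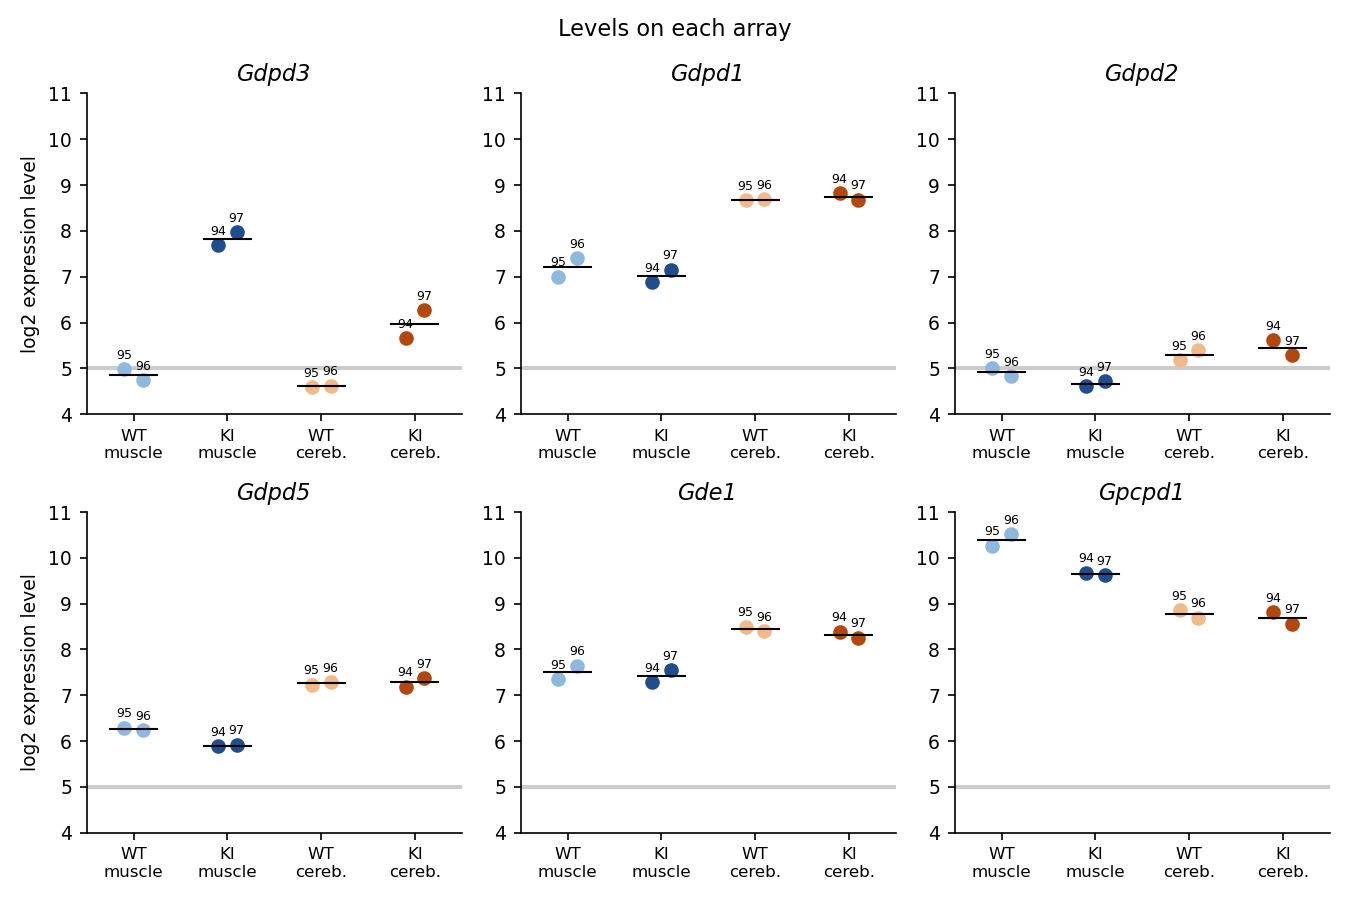
Log2 level of Gdpd3, its 4 relatives and Gpcpd1 on each of the 8 arrays, with replicate numbers, group means as black lines and the range of the arrays' 40th percentiles as a grey band. Gdpd3 lies below the band's upper edge on the 4 WT arrays and above it on the 4 KI arrays; heights are not comparable between panels.

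KI muscle exceeded WT muscle by 2.97 ± 0.19 (log2, SE), a 7.84-fold difference, and KI cerebellum exceeded WT cerebellum by 1.35 ± 0.19, a 2.56-fold difference. The muscle difference was larger by 1.62 ± 0.27 on the log2 scale. No test is given for these 3 values, since Gdpd3 was chosen for them. Gdpd3 passed the filter on low values in each tissue only through its KI arrays. Because the WT levels were below the mark for low signal, the folds depend on the array background, which was not measured. With each array left out in turn and in the other alternatives, the muscle difference was between 2.83 and 3.11 and the cerebellum difference between 1.05 and 1.66. The cerebellum range was set by its KI arrays, with 1.05 when replicate 97 was left out and 1.66 when replicate 94 was.

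For background, 3.55% of 13933 genes tested in muscle and 0.205% of 13641 tested in the cerebellum passed a Benjamini-Hochberg adjusted p of 0.05 in limma (2.66% and 0.147% as higher in KI), and 0.117% of 12865 genes other than Gdpd3 that were tested in both tissues were called higher in KI in both. In these 15 genes the difference was larger in muscle for 2, the RNA polymerase II subunit gene Polr2a (1.23 against 0.82) and Rnf213 (1.10 against 0.96), and larger in the cerebellum for the other 13. Among those 13 were Ifit1 (1.56 in muscle, 2.49 in cerebellum), Usp18 (1.11 and 2.18) and B2m (0.62 and 0.89), interferon-responsive genes. These genes were picked after their values were seen, and the differences between tissues were not tested for them. In WT cerebellum the means of Ifit1 (4.51) and Usp18 (4.92) were below the mark for low signal, so their differences there depend on the array background. Both entered the cerebellum test with the help of their KI arrays, so these calls are a description.

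In WT mice the Gdpd3 signal in muscle was above that in the cerebellum by 0.25 ± 0.19 (log2, SE). All 4 WT values were below the mark for low signal, and Gdpd3 entered the comparison between tissues only through its KI arrays, so this difference is given as a value with no test. Both muscle values lay above both cerebellum values, and 84.5% of all genes in this comparison had no overlap in one direction or the other.

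Marker lists of other cell types were set beside the Gdpd3 levels. The mean of 6 keratinocyte and epithelial markers was 5.09 to 5.11 on the KI muscle arrays and 5.28 to 5.37 on the WT muscle arrays. In the cerebellum it was 5.18 to 5.27 in KI and 5.14 to 5.30 in WT, and in neither tissue was a marker of this list called. Group means over the 4 groups were between 4.38 and 4.52 for Epcam, one of these markers, and between 5.68 and 5.86 for Krt8, another. Of the 6 genes, 4 reached the mark for low signal on both arrays in each muscle group, and 3 in each cerebellum group. The mean of 6 macrophage and microglia markers was 5.74 to 6.04 in KI and 5.60 to 5.61 in WT muscle. In the cerebellum it was 5.76 to 5.77 in KI and 5.47 to 5.57 in WT, again with none called. Aif1, one of these markers, had group means from 4.27 to 4.60. The mean of the TA fibre markers was 11.65 on both KI muscle arrays against 12.07 to 12.18 in WT. Of these 6 genes, 2 were called lower, Actn3 and Pvalb (limma adjusted p = 0.0372 and 0.0439), as were 0.89% of all genes. Both calls were near the threshold and were not followed through the alternatives. On the cerebellum arrays the mean of the 6 neuron markers was 10.01 to 10.25 in KI and 10.47 to 10.58 in WT. All 6 were lower in KI and none was called, with Pcp2, a Purkinje cell gene, at -0.89 ± 0.17 (limma adjusted p = 0.148). The mean of 5 fibroblast markers in the cerebellum was 6.84 to 6.86 in KI and 6.63 to 6.75 in WT, with none called. In muscle it was 8.47 to 9.14 in KI and 8.77 to 8.80 in WT, with overlap. The means of the glia, adipocyte, endothelium, Schwann cell and choroid plexus lists overlapped between the genotypes in both tissues. The macrophage mean was thus higher in KI in both tissues, and the fibre, keratinocyte and neuron means were lower in KI muscle, each without overlap. The neuron mean in muscle (4.67 to 4.68 in KI, 4.78 to 4.86 in WT) was itself below the mark for low signal. Of these 6 neuron markers, 2 reached that mark on both KI muscle arrays and 3 on both WT muscle arrays. In KI cerebellum the neuron mean and the fibre mean (6.08 to 6.10, against 6.17 to 6.41 in WT) were lower and the fibroblast mean higher, also without overlap. That fibre mean included Pvalb, with group means of 9.65 in KI and 10.23 in WT cerebellum. Group means of the other fibre markers there lay between 4.62 and 6.14. Of the 6 fibre markers, 4 were lower and 2 higher in KI cerebellum. Of single tested genes, 19.9% in muscle and 20% in the cerebellum had both KI arrays below both WT arrays. No such share is given for genes higher in KI within a single tissue, or for list means. The part of these cell types in the Gdpd3 difference was not tested.

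Gdpd1, the closest member to Gdpd3 in enzyme activity (probe set 10389590, chromosome 11), did not follow it. On the muscle arrays its level was 7.0 and 7.41 in WT replicates 95 and 96 and 6.89 and 7.16 in KI replicates 94 and 97, and the genotypes overlapped. In the cerebellum it was 8.67 and 8.69 in WT and 8.82 and 8.68 in KI, again with overlap. KI minus WT was -0.18 ± 0.15 in muscle (log2, SE; 95% interval -0.53 to 0.16; limma adjusted p = 0.546) and 0.07 ± 0.15 in the cerebellum (-0.28 to 0.41; adjusted p = 1.0). Neither interval reaches a 2-fold difference.

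Gde1 (probe set 10567335, chromosome 7) was likewise close to WT in both tissues. On the muscle arrays its level was 7.35 and 7.65 in WT replicates 95 and 96 and 7.28 and 7.55 in KI replicates 94 and 97, with overlap. The cerebellum levels were 8.49 and 8.39 in WT and 8.38 and 8.26 in KI, where both KI values were below the lower WT value, as in 20% of genes tested there. KI minus WT was -0.08 ± 0.14 in muscle (95% interval -0.40 to 0.23; limma adjusted p = 0.788) and -0.12 ± 0.14 in the cerebellum (-0.44 to 0.19; adjusted p = 1.0).

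Gdpd5, the surface enzyme GDE2 (probe set 10555205, chromosome 7), was lower on both KI muscle arrays but did not pass the test. Its muscle level was 6.29 and 6.24 in WT replicates 95 and 96 and 5.89 and 5.92 in KI replicates 94 and 97, with a narrow spread in each genotype. The difference was -0.36 ± 0.11 (log2, SE; 95% interval -0.61 to -0.12; unadjusted p = 0.00778, limma adjusted p = 0.104). In muscle, 19.9% of tested genes had both KI arrays below both WT arrays. In the cerebellum Gdpd5 was at 7.23 and 7.28 in WT and 7.19 and 7.37 in KI, and the groups overlapped (0.02 ± 0.11; adjusted p = 1.0). The muscle effect minus the cerebellum effect was -0.38 ± 0.15 (limma adjusted p = 0.326).

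Gdpd2, the surface enzyme GDE3 (probe set 10601044, chromosome X), gave low signal. Its muscle levels of 5.0 and 4.83 in WT and 4.62 and 4.72 in KI all lay under the 40th percentile mark, so it was not tested there; the measured difference was -0.25 ± 0.14 (log2, SE). In the cerebellum the levels were 5.18 and 5.40 in WT and 5.61 and 5.29 in KI, with overlap between the genotypes (0.17 ± 0.14; limma adjusted p = 0.998). Of the 4 relatives, 3 were tested in muscle and 4 in the cerebellum, and none was called in either tissue, at the background shares of 3.55% and 0.205% given above. Gdpd1, Gdpd5 and Gde1 were not called for a difference between the tissues' genotype effects either, where 0.143% of 14708 genes were. Gdpd2 entered that comparison only through the cerebellum, so its value (-0.42 ± 0.20) is given with no test.

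**Figure D2:**
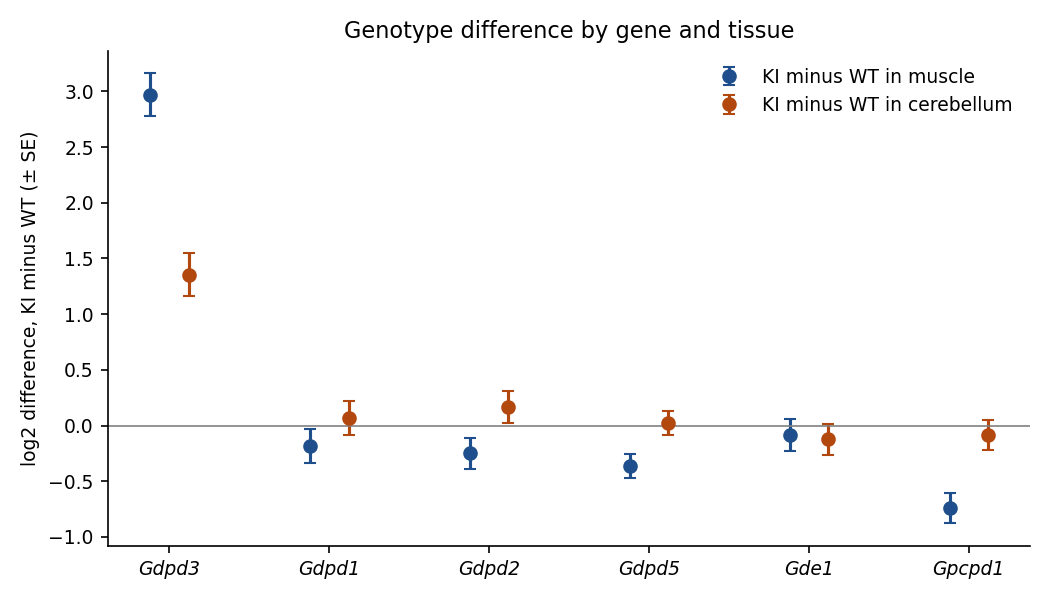
Log2 difference between KI and WT for Gdpd3, its 4 relatives and Gpcpd1, in muscle (blue) and cerebellum (brown-orange), as the mean difference with its SE from the limma fit. Gdpd3 lies at 2.97 and 1.35, while the other differences lie between -0.74 and 0.17.

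Gdpd1, Gdpd5 and Gde1 differed between the tissues. In WT mice all 3 were lower in muscle than in cerebellum at an adjusted p under 0.05, where 33.6% of 14708 genes were called lower and 65% were called in either direction. Gdpd1 was lower by -1.47 ± 0.15, or 2.78-fold (log2, SE; limma adjusted p = 2.06e-05), and was the only one past a 2-fold change, as were 27.3% of all genes. Gdpd5 differed by -0.99 ± 0.11 (adjusted p = 2.81e-05) and Gde1 by -0.94 ± 0.14 (adjusted p = 0.000246). These 3 were called in all 14 alternatives. Gdpd2 differed by -0.37 ± 0.14. It was below the mark on all 4 muscle arrays and entered this comparison only through the cerebellum, so it is given as a value and not counted among the calls.

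In KI mice these 3 genes were again lower in muscle, by -1.73 ± 0.15 for Gdpd1, -1.38 ± 0.11 for Gdpd5 and -0.91 ± 0.14 for Gde1 (log2, SE; limma adjusted p from 3.01e-06 to 0.00035; 29.9% of genes were called lower). The value for Gdpd2, with the same limit as in WT, was -0.79 ± 0.14. Gdpd3 ran the other way among KI mice, with muscle above cerebellum by 1.87 on the log2 scale, a value that contains the differences it was chosen for.

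**Figure D3:**
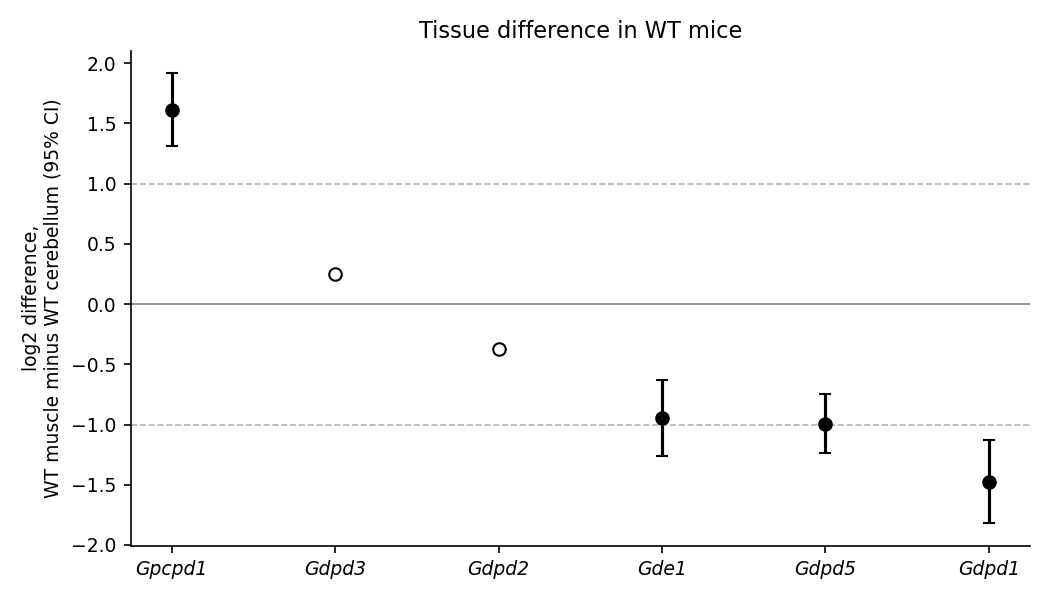
Log2 difference between WT muscle and WT cerebellum with its 95% interval from the limma fit, with dashed lines at a 2-fold change in each direction. Gdpd1, Gdpd5 and Gde1 lie below 0 and Gpcpd1 above 0; Gdpd3 (0.25) and Gdpd2 (-0.37), with low signal, are open points with no interval.

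Among the remaining family genes on the array, Gpcpd1 fell in KI muscle, where 0.89% of genes were called lower. It encodes GDE5, the cytosolic enzyme that splits glycerophosphocholine into choline and glycerol 3-phosphate (probe set 10487945, chromosome 2). Its muscle level was 10.26 and 10.51 in WT replicates 95 and 96 and 9.67 and 9.62 in KI replicates 94 and 97, without overlap. The fall was 1.67-fold (-0.74 ± 0.13, log2, SE; limma adjusted p = 0.0215). The call was lost without WT replicate 95 (adjusted p = 0.053), WT replicate 96 (0.0903), KI replicate 94 (0.0765) or KI replicate 97 (0.098), in a fit of every probe set (0.0797) and in a fit of muscle only (0.0564). In the cerebellum Gpcpd1 was at 8.86 and 8.69 in WT and 8.81 and 8.56 in KI, with overlap (-0.09 ± 0.13; adjusted p = 1.0), and the difference between the tissues' effects did not pass (-0.66 ± 0.19; adjusted p = 0.196). Unlike Gdpd1, Gdpd5 and Gde1, Gpcpd1 was higher in WT muscle than in WT cerebellum, by 1.61 ± 0.13 (adjusted p = 4.18e-06; 31.4% of genes were called higher). Gdpd4 lay between 3.46 and 4.05 on all 8 arrays and was not tested in either tissue.

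The lists of genes around these enzymes had few calls. Of 17 tested genes of lysophosphatidic acid production, breakdown and signalling, 1 was called, as higher, in KI muscle (background 3.55%). In the cerebellum limma called none of 15. The gene was Agpat2, which makes phosphatidic acid from lysophosphatidic acid. It was at 7.10 and 6.86 in KI replicates 94 and 97 and at 6.39 and 6.05 in WT replicates 95 and 96 (0.76 ± 0.14, log2, SE; limma adjusted p = 0.0261). That call was lost without KI muscle replicate 94 (0.124), KI muscle replicate 97 (0.0608), WT muscle replicate 96 (0.0976) or either WT cerebellum array (0.0528 each), unfiltered (0.0511), in a fit of every probe set (0.0906) and in a fit of muscle only (0.0825). The median difference of this list was 0.10 in muscle and 0.05 in the cerebellum, against 0.03 and -0.01 over all tested genes. At an unadjusted p under 0.05 there were 6 of 17 genes in muscle and 1 of 15 in the cerebellum. Over all tested genes that share was 20.3% in muscle (2822 of 13933) and 5.33% in the cerebellum (727 of 13641).

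In the list of phospholipases A, lysophospholipases and their reacylating enzymes, 2 of 24 tested genes were called in KI muscle, beside a background of 3.55%, and 6 had an unadjusted p under 0.05. Pla2g7, the secreted phospholipase that inactivates platelet-activating factor, fell 2.33-fold. It was at 6.91 and 7.02 in KI replicates 94 and 97 and at 8.40 and 7.97 in WT replicates 95 and 96 (-1.22 ± 0.14, log2, SE; limma adjusted p = 0.00419), and it was called in all 14 alternatives. Plbd2, a lysosomal protein of the phospholipase B-like family, was at 8.05 and 8.04 in KI and at 7.52 and 7.57 in WT muscle, a rise of 0.50 ± 0.10 (adjusted p = 0.0328). Its call was lost without any 1 of the 4 muscle arrays or either WT cerebellum array (0.07 to 0.152), unfiltered (0.0671), with every probe set (0.0906), with muscle only (0.0915) and after renewed quantile normalisation (0.0738). The list's median was 0.05 in muscle and 0.02 in the cerebellum, where limma called 0 of 23 genes and 2 had an unadjusted p under 0.05.

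No gene of the N-acylethanolamine and endocannabinoid list was called by limma, of 12 tested in muscle and 13 in the cerebellum, with 4 and 2 at an unadjusted p under 0.05, beside 20.3% and 5.33% of all genes. The members with the smallest p were the phosphatase Ptpn22 in the cerebellum (-0.52 ± 0.14, log2, SE; adjusted p = 0.495), the monoacylglycerol hydrolase Abhd6 in muscle (0.40 ± 0.12; adjusted p = 0.107) and the capsaicin receptor Trpv1 in muscle (-0.38 ± 0.13; adjusted p = 0.144). The list's median was 0.06 in muscle and -0.06 in the cerebellum. No gene of choline and ethanolamine phospholipid synthesis was called either, of 15 in muscle and 16 in the cerebellum, with 2 and 0 at an unadjusted p under 0.05. Ptdss1, a phosphatidylserine synthase, was at 0.43 ± 0.11 in muscle (adjusted p = 0.0699). Pcyt2, of the ethanolamine branch, was at -0.29 ± 0.11 in muscle (adjusted p = 0.187), and the choline dehydrogenase Chdh at 0.24 ± 0.12 in the cerebellum (adjusted p = 0.975). The median of this list was 0.15 in muscle and 0.04 in the cerebellum.

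Of 8 known partners and substrates of Gde1, Gdpd5 and Gdpd2, 1 was called lower and 1 higher in KI muscle (0.89% and 2.66% of all genes). None of 7 was called in the cerebellum, where 1 had an unadjusted p under 0.05 in limma. Cntfr, the anchored receptor subunit for ciliary neurotrophic factor, was at 7.75 and 7.41 in KI replicates 94 and 97 and at 9.06 and 8.36 in WT replicates 95 and 96. The fall was 2.18-fold (-1.13 ± 0.20, log2, SE; limma adjusted p = 0.0218), and the call was lost when KI muscle replicate 97 (0.106) or WT muscle replicate 95 (0.0833) was dropped, with every probe set (0.088) and with muscle only (0.0858). Gpc4, an anchored glypican, was at 8.19 and 8.16 in KI and at 7.75 and 7.60 in WT muscle, a rise of 0.50 ± 0.11 (adjusted p = 0.0384). It lost that call without any 1 of the 8 arrays (0.0598 to 0.145), unfiltered (0.0768), with every probe set (0.0986), with muscle only (0.109) and after renewed quantile normalisation (0.096). Rgs16, the partner of Gde1, was at -0.07 ± 0.16 and Reck, a substrate of Gdpd5, at 0.09 ± 0.21 in muscle (adjusted p = 0.858 and 0.865).

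Interferon-response genes, listed with their behaviour in these data known, were higher in KI in both tissues, as Gdpd3 was. All 10 measured genes had a higher mean in KI in both tissues. Of these, 8 were called higher in muscle and 8 in the cerebellum, where 2.66% and 0.147% of all genes were called higher. The list's median difference was 1.16 in muscle and 1.80 in the cerebellum, against 0.03 and -0.01 over all genes. Those called in both tissues were Ifit1, Ifit3, Oasl2, Usp18, Rtp4, Ddx58 and Ifitm3, while Irf7 was called in muscle and Ifi27 in the cerebellum. In WT cerebellum the means of Ifit1 (4.51), Rtp4 (4.77), Irf7 (4.82) and Usp18 (4.92) were below the mark for low signal. In WT muscle the mean of Ifit1 (4.95) was below it too. Differences from such low levels depend on the array background. With such means the WT arrays alone could not pass the filter. These genes thus entered the test in that tissue with the help of their KI arrays, and their results there are a description. The list was chosen on these data, so its call counts are a description only. Usp18 was called in all 14 alternatives in both tissues, and Oasl2 and Ifitm3 in all 14 in the cerebellum. The other calls were made in 9 to 11 of the 14 and were lost with every probe set and without single arrays of the same tissue, with adjusted p up to 0.117 in muscle (Rtp4, WT replicate 95 left out) and 0.217 in the cerebellum (Ifit3, KI replicate 94 left out). Any link of these genes to the Gdpd3 level was not tested.

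Gdpd3 lies on chromosome 7 between Mapk3 and Ypel3 in the RefSeq gene order, and its neighbours were measured beside it. Of the 5 protein-coding genes on each side, 9 were measured, and Mapk3 was not analysed here. In muscle 1 of the 9 was called, beside a background of 3.55%, and it was lower. This was Tlcd3b, a gene of sphingolipid metabolism and the outermost of the 5 on the Ypel3 side. It was at 5.33 and 5.34 in KI replicates 94 and 97 and at 6.57 and 6.24 in WT replicates 95 and 96 (-1.07 ± 0.14, log2, SE; limma adjusted p = 0.00638), and it was called in all 14 alternatives.

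The nearest measured neighbour, Ypel3, differed by 0.08 ± 0.11 in muscle and -0.06 ± 0.11 in the cerebellum (limma adjusted p = 0.717 and 1.0). The differences of Sult1a1 (-0.27), Slx1b (0.03), Bola2 (0.12), Coro1a (0.05), Tbx6 (-0.24), Ppp4c (0.31) and Aldoa (-0.23) in muscle did not pass, with Ppp4c and Aldoa at an unadjusted p of 0.0214 and 0.0495. In the cerebellum the 9 differences ran from -0.13 for Ppp4c to 0.05 for Sult1a1, and limma called none of them, with none at an unadjusted p under 0.05.

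**Figure D4:**
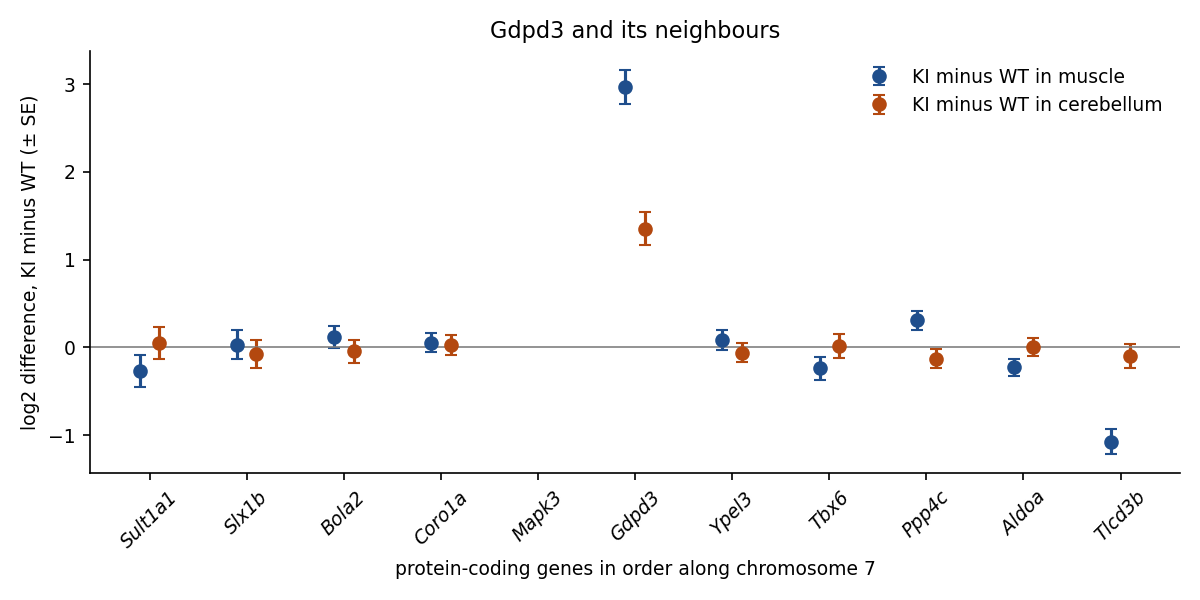
Log2 difference between KI and WT (mean and SE from the limma fit) for Gdpd3 and the 5 protein-coding genes on each side, in gene order along chromosome 7, in muscle (blue) and cerebellum (brown-orange); Mapk3 has no value. Apart from Gdpd3 at 2.97 and 1.35 and Tlcd3b at -1.07 in muscle, the differences lie between -0.27 and 0.31.

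The genes with the profile most like that of Gdpd3 over the 8 arrays were found by centring each gene on its own mean and taking the root mean square difference from Gdpd3, over 14707 genes. The median of this distance was 1.30 on the log2 scale. The nearest was H2-Ea, a class II histocompatibility gene, at 0.37. It was at 4.46 and 4.45 in WT muscle and at 6.38 and 6.91 in KI muscle. In the cerebellum it was at 3.93 and 3.95 in WT and at 4.48 and 4.90 in KI. Like Gdpd3, it was low on the WT arrays, higher on both KI arrays of each tissue, and highest in KI muscle replicate 97. Unlike Gdpd3, it stayed below the mark for low signal in KI cerebellum.

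The next were Tecrl (0.63), the cone opsin Opn1mw (0.66), Prr32 (0.67), the interferon-regulated transcription factor Irf7 (0.70) and the ubiquitin ligase Rnf213 (0.72). Tecrl stood at a mean of 3.87 in WT and 5.52 in KI muscle, Opn1mw at 4.36 and 5.94, and Prr32 at 4.62 and 6.15, so all 3 started from low signal as Gdpd3 did. In the cerebellum their differences were 0.53, 0.22 and 0.36, against 1.08 for Irf7 and 0.96 for Rnf213. The WT cerebellum mean of Irf7 (4.82) was also below the mark for low signal. Tecrl, Opn1mw and Prr32 stayed below the mark for low signal on all cerebellum arrays, whereas Gdpd3 was above it in KI. All 6 genes are shown for their likeness, with no test, since likeness to Gdpd3 already selects for a difference between KI and WT.

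**Figure D5:**
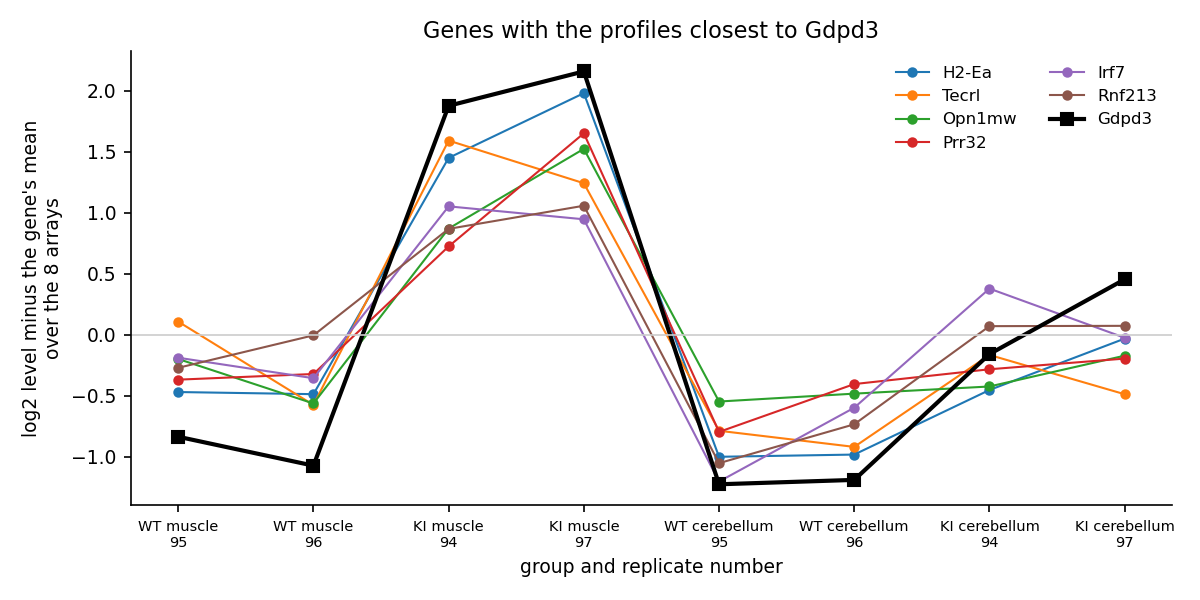
Log2 level of Gdpd3 (black squares) and the 6 genes with the closest profiles, each minus its own mean over the 8 arrays, plotted by group and replicate; lines join the points of a gene and imply no order. All 7 genes are highest on the KI muscle arrays, and Gdpd3, H2-Ea, Opn1mw, Prr32 and Rnf213 peak at replicate 97.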

How the data were processed

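The deposited table held log2 expression values for 35556 probe sets on 8 arrays, made by the authors using RMA and GCOS according to the submitters' processing notes; RMA corrects background, normalises arrays and summarises probes. The sources used here give no versions, no genome build and no list of the arrays normalised in one run. Symbols came from the platform annotation (21789 probe sets with 1 symbol, 1621 with several, 12146 with none). Each gene was represented by its probe set with the highest mean, and entered a tissue's test if 2 or more of the 4 arrays reached that array's 40th percentile. A model with 4 group means was fitted with limma 3.58.1 in R 4.3.3, with 5.30 prior and 4 residual degrees of freedom, and p values were Benjamini-Hochberg adjusted over all tested genes (call at 0.05). Intervals are 95% from the same fit. The number of arrays limits the precision. The fit was tested on simulated data with known changes. Members and lists were chosen with earlier results of these data known. The text names all members; the called genes of 7 lists (or the 3 with the smallest p); 5 neighbours of Gdpd3 on each side; and the 6 closest profiles. Genes of the lists were matched by symbol or Entrez ID, and Polr2a, B2m and those named as examples were chosen after their values were seen. Gene order and promoters came from RefSeq (GRCm38.p6). The title numbers recur between tissues, but no label says that they mark animals, so arrays were not paired. Alternatives were no filter, all probe sets, fewer arrays in the fit, trended and robust variances, quantile normalisation, a replicate block and each array left out.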

Additional observations from a re-analysis of the deposited data

How the results depend on the processing

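The members' values were steady in direction where they were called, while the counts over all genes were not. Of 1275 values of single named genes under the alternatives, 1159 kept direction and side of the threshold or moved within the replicate spread, 114 were no longer past the threshold, 2 were newly past it and 0 reversed beyond that spread. Some small differences without a call did change sign within it. For Gde1 in muscle the values ran from -0.23 to 0.07, with the direction kept in 12 of 14 alternatives. The 495 genes called between KI and WT muscle became 246 with no filter, 69 over all probe sets and 155 with the muscle arrays alone, against 706 with trended and robust variances and 376 after renewed quantile normalisation. With an array left out they ranged from 105 to 385: 105 or 178 when WT muscle replicate 95 or 96 was dropped, 174 or 132 when KI muscle replicate 94 or 97 was, and 264 without either WT cerebellum array. The 28 genes called in the cerebellum became 18 with no filter and 6 over all probe sets, and ranged from 4 to 29: 6 without KI cerebellum replicate 94, 12 without KI replicate 97, 4 without WT replicate 95 and 5 without WT replicate 96. The cause was not tested; the fits without an array or on muscle alone had fewer arrays. The 4018 genes that differed at least 2-fold at an adjusted p under 0.05 between WT muscle and WT cerebellum ranged from 3965 to 4103 in the alternatives by gene, and 5701 probe sets passed in the fit of every probe set. Where a group was left with 1 array, that array was assumed to vary like the others. Arrays with the same number in both tissues did not deviate together (r = 0.057 in KI and -0.097 in WT, over genes, which are not independent). With the number as a replicate block the counts were 494 in muscle, 27 in the cerebellum and 4020 between tissues, and the calls of Gdpd1, Gdpd5 and Gde1 between tissues were kept. Signals below the 40th percentile, as for Gdpd3 in WT and Gdpd2 in muscle, limit what a fold can show.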
